A study of Mus musculus with 16 samples.

Results

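Cells of the rod photoreceptor lineage from mouse retinal organoids were compared between day 21 and day 18 of differentiation. The cells were flow sorted for GFP, a fluorescent reporter here under control of the Nrl promoter (Nrl is the transcription factor that sets rod fate), and their polyadenylated RNA was sequenced. The day 21 group held 4 libraries, 3 from embryonic stem cells (ESC) and 1 from induced pluripotent stem cells (iPSC). The day 18 group held 5 libraries, 3 from ESC and 2 from iPSC. These are 9 of the 16 libraries of the series, chosen by day alone, and 14554 of the 32166 genes in the gene table reached 1 CPM (counts scaled to library size) in 2 or more of them and were tested.

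All 9 libraries carry the same Nrlp-GFP transgene. ESC came from blastocysts of the transgenic mice. The iPSC were made from fibroblasts of transgenic embryos with inducible lentiviral vectors for Oct3/4, Sox2, Klf4 and c-Myc. Both sources were grown as organoids at 5% oxygen until day 10 and at 20% oxygen afterwards, and retinoic acid at 500 nM was in the medium of both days, since it was supplied from day 10 to day 26. The sort takes cells in which the Nrl promoter is or was active, so it selects the lineage but not a stage. Whether the libraries of a group came from separate cultures or clones is not stated in the labels, so the p-values below measure only the spread between these libraries.

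A newborn rod leaves the cell cycle, turns on Otx2 and Crx, and then Nrl and its target Nr2e3, which together activate rod genes and hold back the cone programme. Phototransduction proteins, the membrane discs of the outer segment and the ribbon synapse are built after that. A progenitor instead expresses replication and mitosis genes, Pax6, Sox2 and the effectors of Notch signalling.

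The 9 libraries differed widely within each day. Rebuilt totals ran from 7756466 to 8735482 estimated counts at day 21 and from 4219758 to 21888326 at day 18. The CPM of a library summed to 642418 (ESC day 18 replicate 2) up to 885155 (ESC day 21 replicate 3). On that scale 1 count was worth 0.037 to 0.152 CPM. ESC day 18 replicate 1 and iPSC day 18 replicate 1 had the closest expression profiles of any pair (Pearson's r across genes 0.992, a description), closer than any pair from a single source. ESC day 21 replicate 2 and iPSC day 18 replicate 2 correlated at 0.975 in spite of their different days. On the first principal component, which held 52.6% of the variance, day 21 libraries lay at -13.4 to 87.4 and day 18 libraries at -69.9 to 26.9, so the days overlapped. The Y-linked gene Ddx3y set 2 libraries against the others of their source. It had 19.9, 46.3 and 26.4 CPM in ESC day 21 libraries, 0.122 CPM in the iPSC day 21 library, 0.241, 22.6 and 15.0 CPM in the libraries labelled ESC day 18, and 0.81 and 30.8 CPM in those labelled iPSC day 18. Uty and Eif2s3y, also Y-linked, split the libraries in the same way. Kdm5d, another Y-linked gene, did not, with 8.76 CPM in the iPSC day 21 library and 5.80 CPM in ESC day 21 replicate 1. Without the libraries labelled ESC day 18 replicate 1 and iPSC day 18 replicate 2, the log2 fold changes (defined below) of the landmark genes kept their direction: 2.68 for Nrl, 3.34 for Nr2e3, 1.59 for Crx, 1.89 for Neurod1, 1.21 for Otx2, 2.54 for Prph2 and -1.80 for Mki67. Medians of the gene lists described below were then 1.51 for rod fate factors, 2.19 for phototransduction, 1.84 for the outer segment, 1.19 for the synapse, -0.87 for DNA replication and -1.27 for mitosis.

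The sorted cells carried the rod lineage markers at both days. Nrl had 321, 428 and 1915 CPM in ESC day 21 libraries and 369 CPM in the iPSC day 21 library, against 17.7, 203 and 136 CPM in ESC day 18 libraries and 15.99 and 881 CPM in iPSC day 18 libraries. Every ESC day 21 library was above every ESC day 18 library, and iPSC day 18 replicate 2 was above all day 21 libraries except ESC day 21 replicate 3. Adjusted for source, as throughout, the difference in log2(CPM + 1), called log2 fold change below, was 2.56 with a 95% interval of -0.04 to 5.16 (limma, adjusted p = 0.295). The label of early rod differentiation thus matched its markers in direction, while the day 18 libraries spread from 15.99 to 881 CPM. Without the 2 libraries of replicate 1 at day 18 (ESC and iPSC) the log2 fold change was 1.00, without iPSC day 18 replicate 2 it was 3.36, and without ESC day 21 replicate 3 it was 1.99. Nrl also drives the reporter by which the cells of both days were sorted. In such sorted bulk samples, fewer cells of a type and less RNA per cell cannot be told apart.

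Nr2e3, the nuclear receptor that Nrl activates and that represses cone genes, followed the same pattern. It had 304, 370 and 1675 CPM in ESC day 21 libraries and 363 CPM in the iPSC day 21 library, against 8.76, 76.0 and 125 CPM in ESC day 18 libraries and 8.65 and 709 CPM in iPSC day 18 libraries. ESC day 18 replicate 1 and iPSC day 18 replicate 1 held the lowest levels, and iPSC day 18 replicate 2 lay inside the day 21 range. The log2 fold change was 3.19, with an interval of 0.42 to 5.96 (limma, adjusted p = 0.279).

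Mki67, which marks dividing cells, went the opposite way. It had 135, 62.3 and 9.6 CPM in ESC day 21 libraries and 43.5 CPM in the iPSC day 21 library, against 406, 66.4 and 146 CPM in ESC day 18 libraries and 462 and 172 CPM in iPSC day 18 libraries. The pair of libraries with the least Nrl, ESC and iPSC day 18 replicate 1, held the highest Mki67, and ESC day 18 replicate 2 lay among the day 21 libraries. The log2 fold change was -2.08 (interval -3.79 to -0.37, limma adjusted p = 0.278), and -1.38 without that pair.

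**Figure D1:**
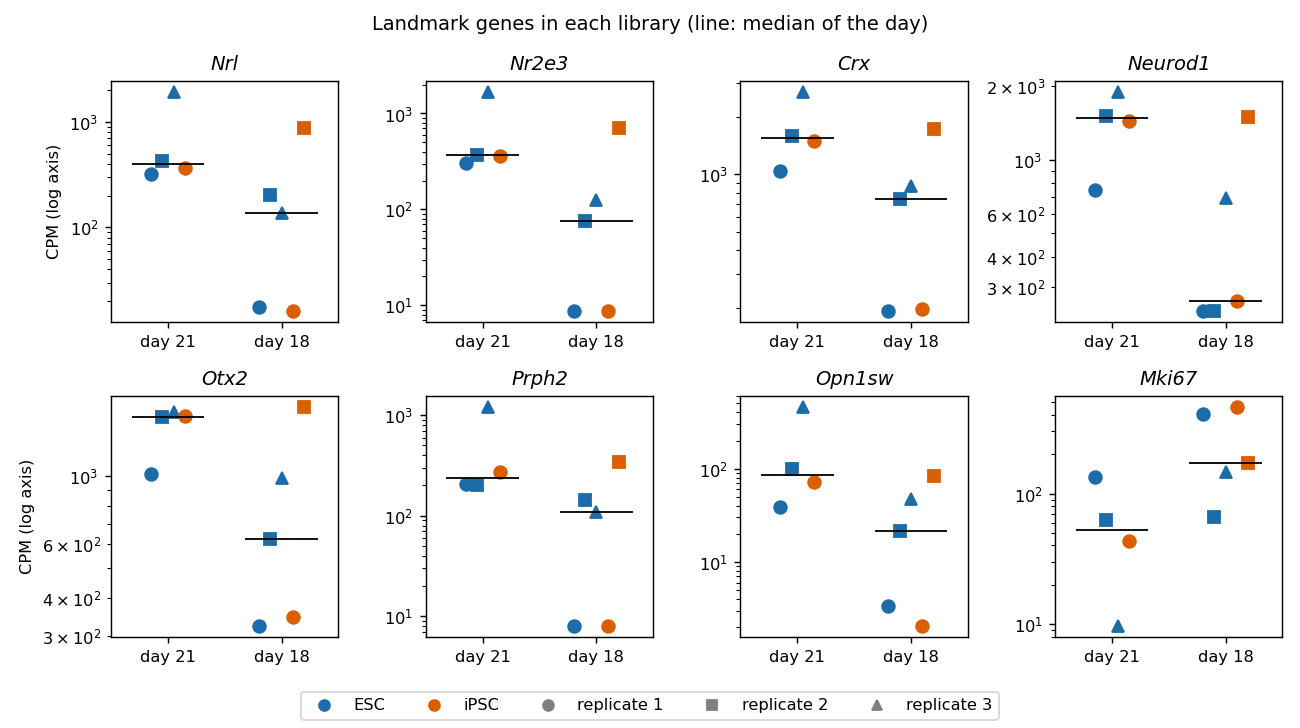
CPM on a log axis for 8 landmark genes, 1 panel each, with the 4 day 21 libraries left of the 5 day 18 libraries, ESC in blue, iPSC in orange, marker shape for the replicate and a line at each day's median. Nrl, Nr2e3, Crx, Neurod1, Otx2 and Prph2 are higher in all 3 ESC day 21 libraries than in all 3 ESC day 18 libraries, and for these genes iPSC day 18 replicate 2 sits above at least 2 of the 4 day 21 libraries.

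Across all genes, no gene passed an adjusted p under 0.05 between day 21 and day 18 in limma (0 of 14554, 0%). At an unadjusted p under 0.05 there were 2491 genes, 1245 with a higher level at day 21 (8.55% of genes tested) and 1246 with a lower one (8.56%). The smallest adjusted p was 0.278. Of the gene sums that could be built from the deposited transcript counts, edgeR called 0 of 9058 (1297 at an unadjusted p under 0.05) and DESeq2 called 14, 5 higher and 9 lower. With limma's array weights, which gave ESC day 18 replicate 1 a weight of 5.76 and ESC day 18 replicate 2 a weight of 0.332, 4749 genes were called. With the replicate number as a block 1427 were called, but the numbers were not taken as pairs, for reasons given below. The median half-width of the 95% interval was 0.598 on the log2 scale, and the median log2 fold change of all genes was 0.03, with 7674 genes positive and 6880 negative. The statements below are therefore levels, intervals and counts. None of the named genes passed the adjusted test in the unweighted limma fit of source and day with all 9 libraries.

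Genes whose days did not overlap were counted as a description. Some genes would separate in this way with days assigned to libraries at random, and their number was not estimated. In 145 genes all 4 day 21 libraries were above all 5 day 18 libraries (0.996% of genes tested), and in 157 all 4 were below (1.08%). Rescaling every library to the same sum moved the median log2 fold change of all genes to -0.10 and the split to 133 above and 246 below. Leaving out a library can only keep or raise these counts, so a higher count is not by itself a clearer difference. Without iPSC day 18 replicate 2 there were 1184 above (8.14%) and 575 below (3.95%). Leaving out ESC day 21 replicate 1 gave 852 above and 1227 below, and leaving out both libraries at odds on Ddx3y gave 1219 (8.38%) and 616 (4.23%). The other single omissions gave 154 to 387 above and 165 to 488 below, reaching 256 and 488 without ESC day 18 replicate 2, 387 and 393 without ESC day 18 replicate 3, and 232 and 256 without ESC day 21 replicate 2.

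**Figure D2:**
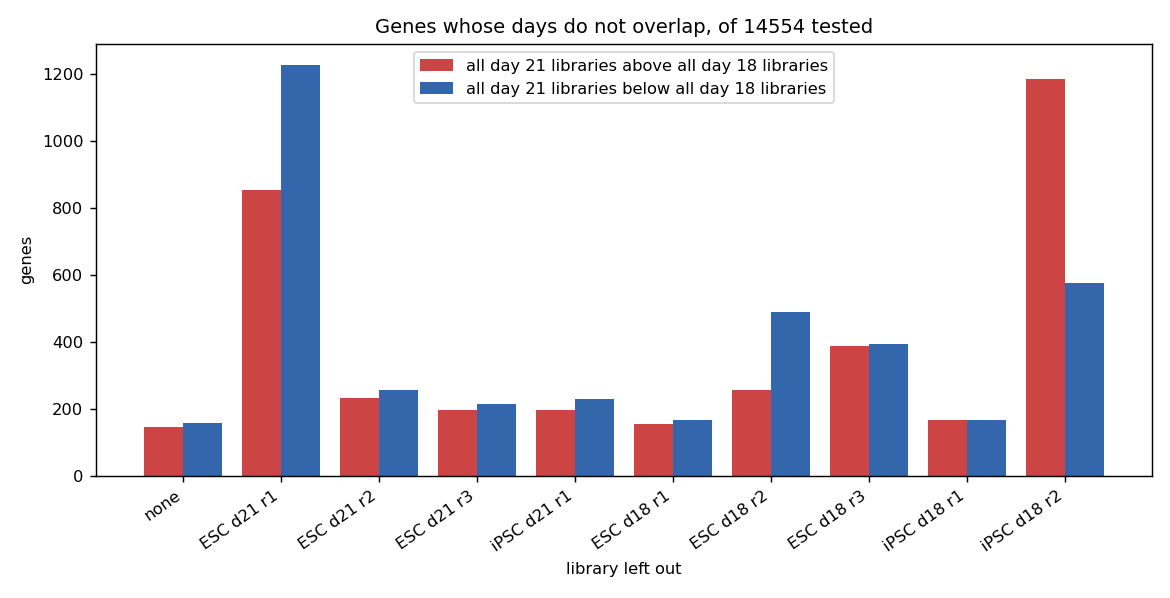
Number of genes, of 14554 tested, whose day 21 libraries all lie above (red) or all below (blue) the day 18 libraries, with all 9 libraries ("none") and with each library left out in turn. The bars are tallest without ESC day 21 replicate 1 (852 and 1227) and without iPSC day 18 replicate 2 (1184 and 575), against 145 and 157 with all libraries. Leaving out a library can only keep or raise a bar.

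Among genes with a mean of at least 5 CPM, the largest positive fold change with non-overlapping days belonged to Dgkk, a diacylglycerol kinase. It had 4.35, 10.4 and 12.9 CPM in ESC day 21 libraries and 14.2 CPM in the iPSC day 21 library, against 0.757, 2.39 and 1.43 CPM in ESC day 18 libraries and 1.22 and 2.91 CPM in iPSC day 18 libraries. The log2 fold change was 2.08, with an interval of 1.26 to 2.90. That its days did not overlap is how it was chosen.

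Pgm5, a phosphoglucomutase relative found at cell junctions, came next with 13.0, 33.1, 53.6 and 24.2 CPM at day 21 (ESC replicates 1 to 3, then iPSC) against 2.11, 10.2, 9.11, 2.23 and 10.98 CPM at day 18 (ESC replicates 1 to 3, then iPSC replicates 1 and 2). Abi3, a relative of the actin-regulating Abl interactors, had a log2 fold change of 1.92, Adssl1, an adenylosuccinate synthase, 1.87, and Smim1, a small membrane protein, 1.84. Radil, an effector of the small GTPase Rap, followed at 1.58, and Neurl1a, a ubiquitin ligase, and Proser2 at 1.49 each. The last of the 10 were Parvb, which links integrins to actin, at 1.33 and Hist1h1c, a linker histone, at 1.30. The margin between days was narrow for several of them: Parvb had 100 to 124 CPM at day 21 and 23.0 to 94.4 CPM at day 18.

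The largest negative fold changes with non-overlapping days were found by the same limit of 5 CPM on the mean. Zwilch, a kinetochore protein of the spindle checkpoint, had 10.4, 7.4, 5.09 and 4.92 CPM at day 21 (ESC replicates 1 to 3, then iPSC) against 39.7, 14.7, 22.6, 40.8 and 18.3 CPM at day 18 (ESC replicates 1 to 3, then iPSC replicates 1 and 2). Its log2 fold change was -1.78, with an interval of -2.61 to -0.95. Levels at day 18 were highest in ESC and iPSC replicate 1.

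Cdc6, which licenses replication origins, had the largest negative fold change of the non-overlapping genes with a mean of at least 5 CPM, -1.85, with 3.87, 2.5, 0.478 and 1.87 CPM at day 21 against 21.2, 5.67, 5.19, 20.3 and 6.33 CPM at day 18, in the same library order. Neil3, a DNA glycosylase, had a log2 fold change of -1.78. It was followed by Esco2, which acetylates cohesin, at -1.71, Chaf1b, a subunit of the chromatin assembly factor, at -1.59, and Fanci, of the Fanconi anaemia pathway, at -1.50. Cd1d1, which presents lipid antigens, had -1.70, Dock1, an activator of Rac, -1.66, and Slc30a10, a manganese exporter, -1.61.

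**Figure D3:**
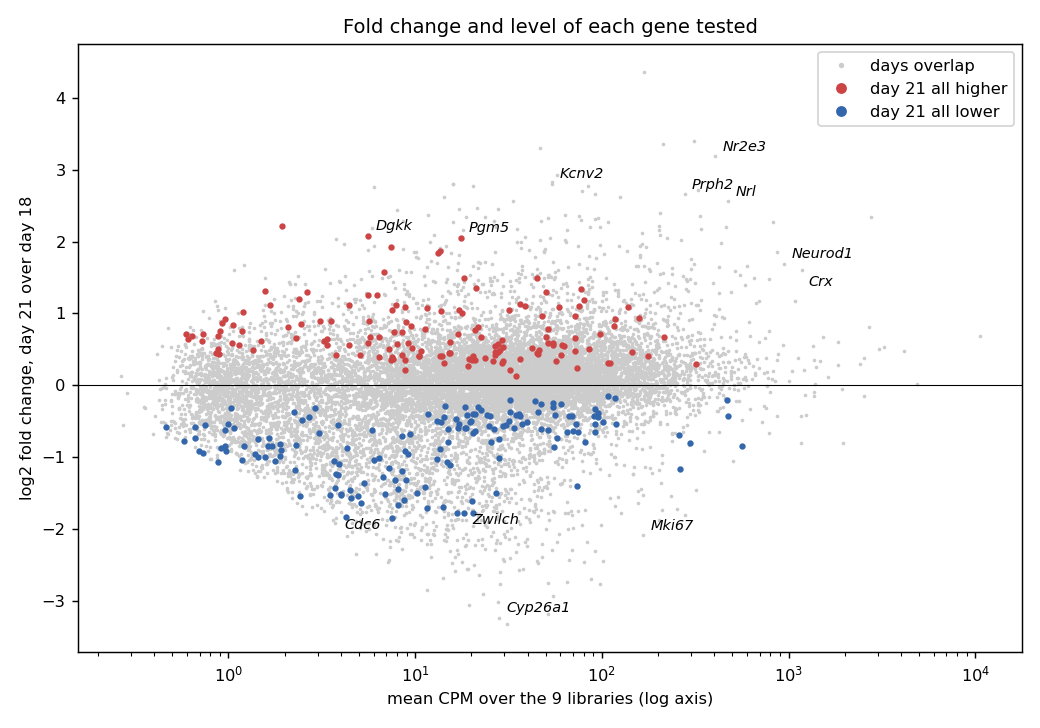
Log2 fold change of day 21 over day 18 against the mean CPM over the 9 libraries (log axis) for each gene tested, with the 145 genes higher in every day 21 library in red and the 157 lower in every day 21 library in blue. Rod genes such as Nr2e3 (3.19) and Nrl (2.56) have large fold changes with overlapping days, and Dgkk (2.08) and Zwilch (-1.78) have smaller ones without overlap.

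Transcription factors of rod fate were mostly at higher levels at day 21. Of 19 listed, 18 were tested (Ikzf1 stayed below the minimum), 15 had a positive fold change, and 9 were positive at an unadjusted p under 0.05 against a background of 8.55% of genes. None passed the adjusted test and none was without overlap over all 9 libraries. Among the ESC libraries alone, 11 of 18 were above in all 3 day 21 libraries, against 12.3% of all genes tested. The median log2 fold change of the 18 was 1.42, and 0.03 for all genes. Without the ESC and iPSC day 18 replicate 1 libraries the median of the 18 was 0.71.

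Crx, the homeodomain activator of photoreceptor genes, had 1046, 1586, 2701 and 1500 CPM at day 21 (ESC replicates 1 to 3, then iPSC) against 192, 742, 871, 198 and 1728 CPM at day 18 (ESC replicates 1 to 3, then iPSC replicates 1 and 2). Its log2 fold change was 1.61, with an interval of 0.10 to 3.12. Among day 18 libraries, Crx was low in ESC and iPSC replicate 1 alone. Neurod1, a basic helix-loop-helix factor of photoreceptor differentiation, had 751, 1514, 1891 and 1442 CPM at day 21 against 239, 239, 696, 264 and 1500 CPM at day 18, in the same order. Its log2 fold change was 1.69 (interval 0.44 to 2.95, limma adjusted p = 0.278).

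Otx2, which acts above Crx, had a smaller log2 fold change than Crx, a difference that was not tested. It had 1019, 1562, 1631 and 1579 CPM at day 21 and 322, 622, 991, 345 and 1690 CPM at day 18, a log2 fold change of 1.18. Prdm1, which steers precursors away from bipolar fate, had 248 to 532 CPM at day 21 against 37.1 to 487 CPM at day 18 and a log2 fold change of 1.75. Mef2d, a cofactor of Crx at photoreceptor enhancers, had 1.33, and Rxrg, a retinoid receptor of photoreceptors, 1.50. The 3 members with a negative value were Sall3 (-1.04), Esrrb (-0.14) and Mef2c (-0.09).

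Genes of rod phototransduction, the cascade that turns light capture into closure of cation channels, had a positive fold change in 19 of 19 tested of 21 listed (Gucy2f and Guca1a did not reach the minimum). At an unadjusted p under 0.05, 6 were positive, and 1 had non-overlapping days, against backgrounds of 8.55% and 0.996%. The list median was 1.89, and 0.83 without the ESC and iPSC day 18 replicate 1 libraries. The gene without overlap was Pde6a, a catalytic subunit of the phosphodiesterase, at low levels: 2.08, 2.25, 3.29 and 3.09 CPM at day 21 against 0.21, 1.18, 0, 0 and 1.96 CPM at day 18, in the order above.

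Gngt1, the gamma subunit of rod transducin, had 49.6, 124, 289 and 104 CPM at day 21 (ESC replicates 1 to 3, then iPSC) against 4.07, 24.5, 32.3, 5.82 and 70.1 CPM at day 18 (ESC replicates 1 to 3, then iPSC replicates 1 and 2), a log2 fold change of 2.71. Its partner Gnat1, the alpha subunit, was low in every library, with 3.15, 5.32, 6.66 and 5.71 CPM at day 21 against 5.17, 4.29, 1.97, 4.68 and 5.73 CPM at day 18. Its log2 fold change of 0.28 (interval -0.41 to 0.97, limma adjusted p = 0.642) was within the spread between libraries. The difference in fold change between Gngt1 and Gnat1 was not tested. Gucy2e, a guanylate cyclase that restores cGMP, had 52.0 to 226 CPM at day 21 against 4.56 to 101 CPM at day 18, and a log2 fold change of 2.30.

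The outer segment and cilium list, like that of rod phototransduction, had only positive members. Of 28 listed genes 27 were tested and 27 had a positive fold change, with a median of 1.81 over the list. Without the ESC and iPSC day 18 replicate 1 libraries the median was 0.80. At an unadjusted p under 0.05, 18 were positive (8.55% of all genes). Over ESC libraries alone, 19 of 27 were above in every day 21 library, against 12.3% of all genes. With all 9 libraries, 0 of 27 were free of overlap (0.996% of all genes were). Prph2, a tetraspanin of the disc rim, had 206, 202, 1210 and 273 CPM at day 21 against 8.05, 145, 109, 7.97 and 341 CPM at day 18, in the order above, and a log2 fold change of 2.66.

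Kcnv2, a modulatory subunit of the inner segment potassium channel, had the smallest p of the list. It had 42.7, 82.2, 160 and 94.1 CPM at day 21 against 4.07, 7.72, 23.1, 4.24 and 71.0 CPM at day 18. Only iPSC day 18 replicate 2 overlapped the day 21 range, and the log2 fold change was 2.81 (interval 1.09 to 4.52, limma adjusted p = 0.278). Impg2, a proteoglycan of the matrix around photoreceptors, had 277 to 1064 CPM at day 21 against 17.7 to 511 CPM at day 18, a log2 fold change of 2.71. Aipl1, the chaperone of phosphodiesterase 6, had 2.29. Rdh8, a retinol dehydrogenase of the outer segment, was absent or nearly so in 4 of 5 day 18 libraries (0, 0.162, 0 and 0 CPM, with 4.79 CPM in iPSC day 18 replicate 2), against 2.51, 1.81, 21.1 and 3.69 CPM at day 21.

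Synaptic genes of the photoreceptor terminal were also at higher levels at day 21 in most cases. Of 24 tested, 21 had a positive fold change, and the median was 1.08 (0.59 without the ESC and iPSC day 18 replicate 1 libraries). At an unadjusted p under 0.05, 12 were positive (8.55% of all genes) and 1 was negative (8.56%). Lrit2, a leucine-rich repeat protein, had 23.9, 52.3, 89.9 and 58.3 CPM at day 21 against 1.55, 20.3, 9.07, 1.55 and 43.4 CPM at day 18 (ESC replicates first on each day). Pclo, a scaffold of the presynaptic active zone, had 131 to 230 CPM at day 21 and 62.4 to 197 CPM at day 18, a log2 fold change of 1.08. Elfn1, which organises the rod to bipolar synapse, had a log2 fold change of 1.40. The negative member was the adhesion receptor Nrxn3, at -0.81.

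Cone genes, like the rod genes, had mostly positive fold changes. Of 14 tested of 17 listed, 13 had a positive fold change, and the median was 1.15. It was 0.49 without the ESC and iPSC day 18 replicate 1 libraries. At an unadjusted p under 0.05, 6 were positive (8.55% of all genes). Opn1sw, the short-wavelength cone opsin, had 39.0, 100, 460 and 71.8 CPM at day 21 (ESC replicates 1 to 3, then iPSC) against 3.36, 21.5, 47.5, 2.04 and 84.3 CPM at day 18 (ESC replicates 1 to 3, then iPSC replicates 1 and 2), a log2 fold change of 2.66. It was highest in ESC day 21 replicate 3, the library that also had the highest Nrl and Nr2e3. Gngt2, the cone transducin gamma subunit, had 2.03 and Kcne2, a potassium channel subunit, 1.94. The middle- and long-wavelength opsin Opn1mw was listed at 0 CPM in all 9 libraries, and Gnat2, the cone transducin alpha subunit, had 6.16 to 19.5 CPM at day 21 against 3.06 to 27.8 CPM at day 18.

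**Figure D4:**
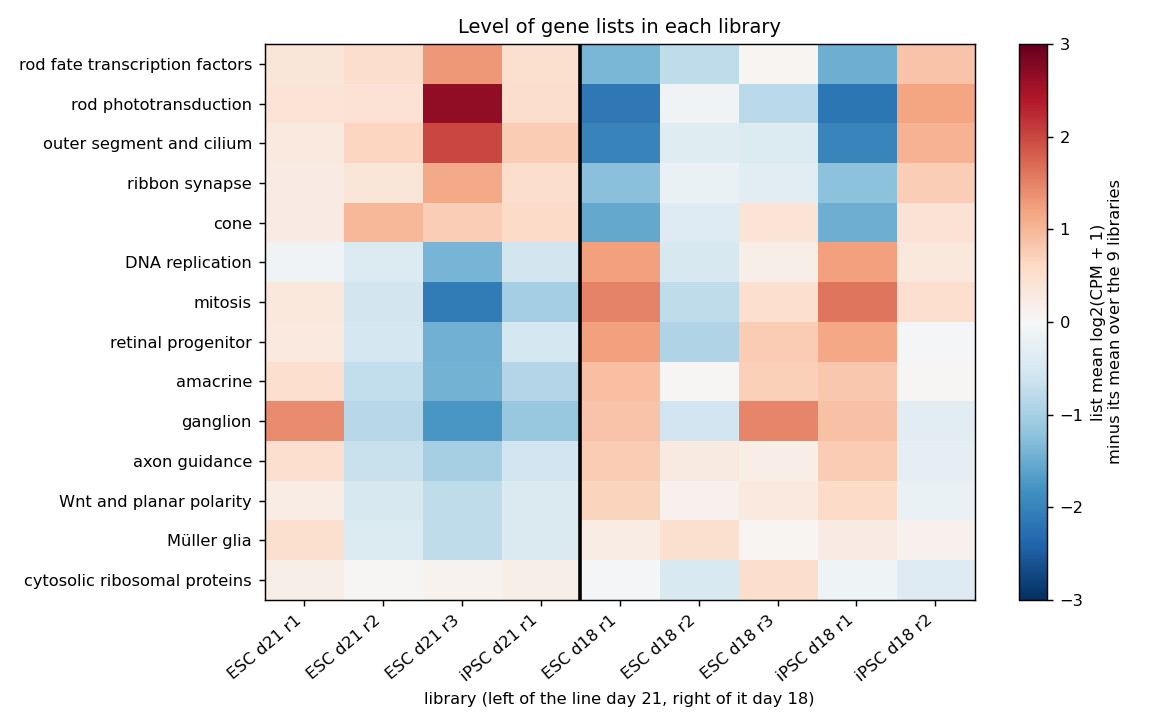
Mean log2(CPM + 1) of 14 gene lists in each library, minus the list's mean over the 9 libraries (red above, blue below), with the 4 day 21 libraries left of the black line and the 5 day 18 libraries right of it. The rod lists are lowest and mitosis highest in ESC and iPSC day 18 replicate 1, and in rod phototransduction iPSC day 18 replicate 2 is above 3 of the 4 day 21 libraries.

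Genes of the dividing cell were at lower levels at day 21. All 37 mitosis genes tested had a negative fold change, 25 of them at an unadjusted p under 0.05 against 8.56% of all genes, and the median was -1.55. With all 9 libraries, 0 of 37 were free of overlap (1.08% of all genes were lower without overlap). Over ESC libraries alone, 1 of 37 mitosis genes and 4 of 35 replication genes were below in every day 21 library, against 5.41% of all genes. Of 35 DNA replication genes, 34 were negative, 18 at an unadjusted p under 0.05, and 3 (Cdc6, Ccne1 and the ligase Lig1) were without overlap (1.08% of all genes were), with a median of -1.04. The sum of the mitosis list was 194 to 1186 CPM at day 21 against 524 to 3152 CPM at day 18. Without the ESC and iPSC day 18 replicate 1 libraries the medians were -0.95 for mitosis and -0.54 for replication.

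Mcm5, of the replicative helicase, had 20.3, 6.91, 1.64 and 5.95 CPM at day 21 (ESC replicates 1 to 3, then iPSC) against 69.5, 16.4, 31.7, 63.4 and 25.2 CPM at day 18 (ESC replicates 1 to 3, then iPSC replicates 1 and 2). ESC day 21 replicate 1 was above ESC day 18 replicate 2, so the days overlapped, and the log2 fold change was -2.29 (interval -3.68 to -0.89). Mcm3, of the same helicase, had -2.19. Ccne1, the cyclin that starts S phase, was without overlap, with 1.24 to 5.81 CPM at day 21 against 7.61 to 16.1 CPM at day 18, a log2 fold change of -1.44.

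Among mitosis genes, Kif4, a chromosome-bound kinesin, had 16.2, 6.14, 2.78 and 4.49 CPM at day 21 against 45.1, 9.8, 32.1, 48.3 and 19.2 CPM at day 18, in the order above, and a log2 fold change of -1.97. Spc25, of the kinetochore, had -1.73, Plk1, a mitotic kinase, -1.60, and Kif20a, a kinesin of cytokinesis, -1.52. In each of the 4 genes, ESC day 21 replicate 3 was the lowest library. ESC day 21 replicate 1, with the lowest Nrl of day 21, was the highest of its day in each.

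Regulators of cell cycle exit were split. Of 18 tested, 8 had a positive fold change and 10 a negative one. Btg2, an antiproliferative factor of neuron birth, had 548, 814, 770 and 999 CPM at day 21 against 341, 358, 444, 342 and 880 CPM at day 18, a log2 fold change of 0.88. The cyclin-dependent kinase inhibitors Cdkn1a and Cdkn1b had 0.63 and 0.43, and the kinase Cdk4 had -0.67.

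Promoters of the dividing-cell and rod genes differed in the letters they hold. Promoter windows of 300 bases (250 before to 50 after the start, RefSeq, GRCm38.p6) were found for 10748 of the genes tested and searched on both strands for 5 motifs: TAATCC, a core of CRX sites, TGCTGA, an NRL half-site, TTTGAA, the cell cycle genes homology region, and TTCGCGC and TTGGCGC, forms of E2F sites. TTTGAA was in 25 of 33 mitosis promoters (75.8%), against 14.1% of all promoters. An E2F form was in 13 of 27 replication promoters (48.1%), against 7.97% of all.

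TAATCC was in 6 of 16 promoters of rod fate factors (37.5%), 6 of 12 of phototransduction (50%) and 7 of 22 of the outer segment list (31.8%), against 6.99% of all promoters and 0 of the replication and mitosis promoters. TGCTGA was in 37.5%, 33.3% and 36.4% of the same rod lists, against 18.7% of all. Among genes with non-overlapping days, TAATCC was in 3.03% of 99 promoters of genes higher at day 21 and 7.21% of 111 of genes lower at day 21, and an E2F form in 4.04% of the higher and 7.21% of the lower genes. TTTGAA was in 18.2% of the higher and 16.2% of the lower genes, against 14.1% of all. TGCTGA was in 22.2% and 17.1% of them, against 18.7% of all. A match describes these windows and is not evidence of binding.

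Windows of 2 rod genes and 2 dividing-cell genes, chosen because they hold the motifs, show where these lie. The windows of Impg2, Cdc6 and Ccne1 hold none of the 5. The sequences are read 5′ to 3′ on the strand of the gene, with the motifs above in capitals (a site on the opposite strand appears as its reverse complement, such as GGATTA for TAATCC). They lie at chr7:15879906-15880205 (Crx, minus strand), chr11:72037460-72037759 (Aipl1, minus strand), chr7:135716330-135716629 (Mki67, minus strand) and chr8:75109259-75109558 (Mcm5, plus strand).
Crx: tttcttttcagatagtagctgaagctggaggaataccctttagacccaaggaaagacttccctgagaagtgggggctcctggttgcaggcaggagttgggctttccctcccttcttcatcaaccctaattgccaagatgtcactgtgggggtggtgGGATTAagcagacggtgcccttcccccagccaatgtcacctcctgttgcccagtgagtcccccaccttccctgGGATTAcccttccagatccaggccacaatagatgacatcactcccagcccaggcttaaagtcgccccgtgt
Aipl1: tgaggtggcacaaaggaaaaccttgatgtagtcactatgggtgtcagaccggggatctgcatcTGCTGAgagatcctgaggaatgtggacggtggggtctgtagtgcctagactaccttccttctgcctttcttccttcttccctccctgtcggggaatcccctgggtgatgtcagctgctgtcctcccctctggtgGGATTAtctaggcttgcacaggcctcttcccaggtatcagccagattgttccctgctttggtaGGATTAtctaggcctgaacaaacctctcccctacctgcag
Mki67: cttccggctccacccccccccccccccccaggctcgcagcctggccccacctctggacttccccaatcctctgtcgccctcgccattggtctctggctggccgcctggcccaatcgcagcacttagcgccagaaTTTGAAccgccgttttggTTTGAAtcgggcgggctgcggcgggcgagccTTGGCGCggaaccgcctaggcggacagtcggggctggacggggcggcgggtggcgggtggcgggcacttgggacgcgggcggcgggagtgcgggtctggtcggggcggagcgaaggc
Mcm5: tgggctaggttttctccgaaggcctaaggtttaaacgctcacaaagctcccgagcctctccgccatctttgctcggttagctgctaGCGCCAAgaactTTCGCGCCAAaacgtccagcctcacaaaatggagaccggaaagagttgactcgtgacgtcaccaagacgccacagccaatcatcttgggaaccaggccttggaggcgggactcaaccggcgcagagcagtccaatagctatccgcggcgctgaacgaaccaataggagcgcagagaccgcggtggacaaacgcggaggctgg
Crx and Aipl1 each hold 2 copies of TAATCC on the opposite strand, and Aipl1 a TGCTGA. Mki67 holds 2 copies of TTTGAA and 1 TTGGCGC, and in Mcm5 a TTCGCGC overlaps a TTGGCGC of the opposite strand, with another TTGGCGC just before it.

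Identity genes of the retinal progenitor were mostly at lower levels at day 21. Of 27 tested, 24 had a negative fold change, and the median was -0.91 (-0.58 without the ESC and iPSC day 18 replicate 1 libraries). At an unadjusted p under 0.05, 11 were negative (8.56% of all genes). The zinc finger factor Zic2 (-0.64) was the 1 member without overlap (1.08% of all genes). Sox2, a factor of neural stem cells, had 27.3, 18.5, 4.97 and 12.9 CPM at day 21 (ESC replicates 1 to 3, then iPSC) against 73.3, 37.7, 47.8, 79.0 and 23.2 CPM at day 18 (ESC replicates 1 to 3, then iPSC replicates 1 and 2), a log2 fold change of -1.76. Its days overlapped only through ESC day 21 replicate 1 and iPSC day 18 replicate 2. Pax6, the eye field homeodomain factor, had 24.5 to 178 CPM at day 21 against 162 to 488 CPM at day 18, and Nes, an intermediate filament of progenitors, had a log2 fold change of -1.99. Zic1, of the same family as Zic2, had -2.19, with its highest level, 337 CPM, in ESC day 18 replicate 2.

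Notch signalling holds progenitors undifferentiated. Of 26 tested, 19 were negative, 2 of them at an unadjusted p under 0.05 (8.56% of all genes), with a median of -0.26. Hes1, a repressor induced by Notch, had a log2 fold change of -1.82, with 2.26 to 19.8 CPM at day 21 against 9.08 to 53.5 CPM at day 18. Lfng, which modifies the receptor, had -1.61, and the receptor Notch3 -1.39. The 7 positive members included Mib1 at 0.35, Hey1 at 0.67 and Dlk1 at 0.79, and the receptor Notch1 had -0.17. Without the ESC and iPSC day 18 replicate 1 libraries the list median was -0.046, and without the pair at odds on Ddx3y it was -0.047.

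Neurogenic factors were mixed. Of 30 tested, 9 were positive and 21 negative, 5 and 7 of them at an unadjusted p under 0.05 (8.55% and 8.56% of all genes). Besides Otx2 and Neurod1, the positive members included Neurod4, a basic helix-loop-helix factor, with 722, 1017, 680 and 847 CPM at day 21 against 167, 120, 331, 196 and 1296 CPM at day 18 and a log2 fold change of 1.66, and Onecut1, a factor of horizontal cells, at 1.09. The negative ones included Nhlh2 at -2.56 and Bhlhe22, a factor of amacrine and bipolar subtypes, at -1.67.

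Retinoic acid was in the medium on both days, and the genes around it were mixed. Of 20 tested, 8 were positive and 12 negative, 5 of each at an unadjusted p under 0.05 (8.55% and 8.56% of all genes). Cyp26a1, which degrades retinoic acid and is induced by it, had 19.5, 3.42, 1.07 and 1.4 CPM at day 21 against 63.1, 56.7, 25.1, 68.2 and 14.3 CPM at day 18, in the order above. It overlapped only through ESC day 21 replicate 1 and iPSC day 18 replicate 2, and its log2 fold change of -3.24 (interval -4.78 to -1.69, limma adjusted p = 0.278) was the most negative of the named genes. Rarb, a retinoic acid receptor that is itself a target, had -1.73, and Dhrs3, a retinaldehyde reductase, -1.62. Rdh11, a retinol dehydrogenase of photoreceptors, had 0.94.

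Guidance and Wnt genes were at lower levels at day 21 in most cases. Of 37 axon guidance genes 29 were negative, 16 of them at an unadjusted p under 0.05 (8.56% of all genes), with a median of -0.98. That median was -0.70 without the ESC and iPSC day 18 replicate 1 libraries. Sema6d, a semaphorin, had 2.19 to 15.6 CPM at day 21 against 7.39 to 62.9 CPM at day 18, and Robo3, a Slit receptor family member, 0 to 2.12 CPM against 0.981 to 12.2 CPM. The ligands Slit2 and Efna5 had log2 fold changes of -1.24 and -1.80. Of 32 Wnt and planar polarity genes 24 were negative, 13 of them at an unadjusted p under 0.05 (8.56% of all genes). Their median was -0.56, and -0.18 without the ESC and iPSC day 18 replicate 1 libraries. Lef1, the nuclear effector of Wnt, had 0.921 to 3.88 CPM at day 21 against 1.97 to 11.6 CPM at day 18, and the receptor Fzd1 a log2 fold change of -1.57.

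**Figure D5:**
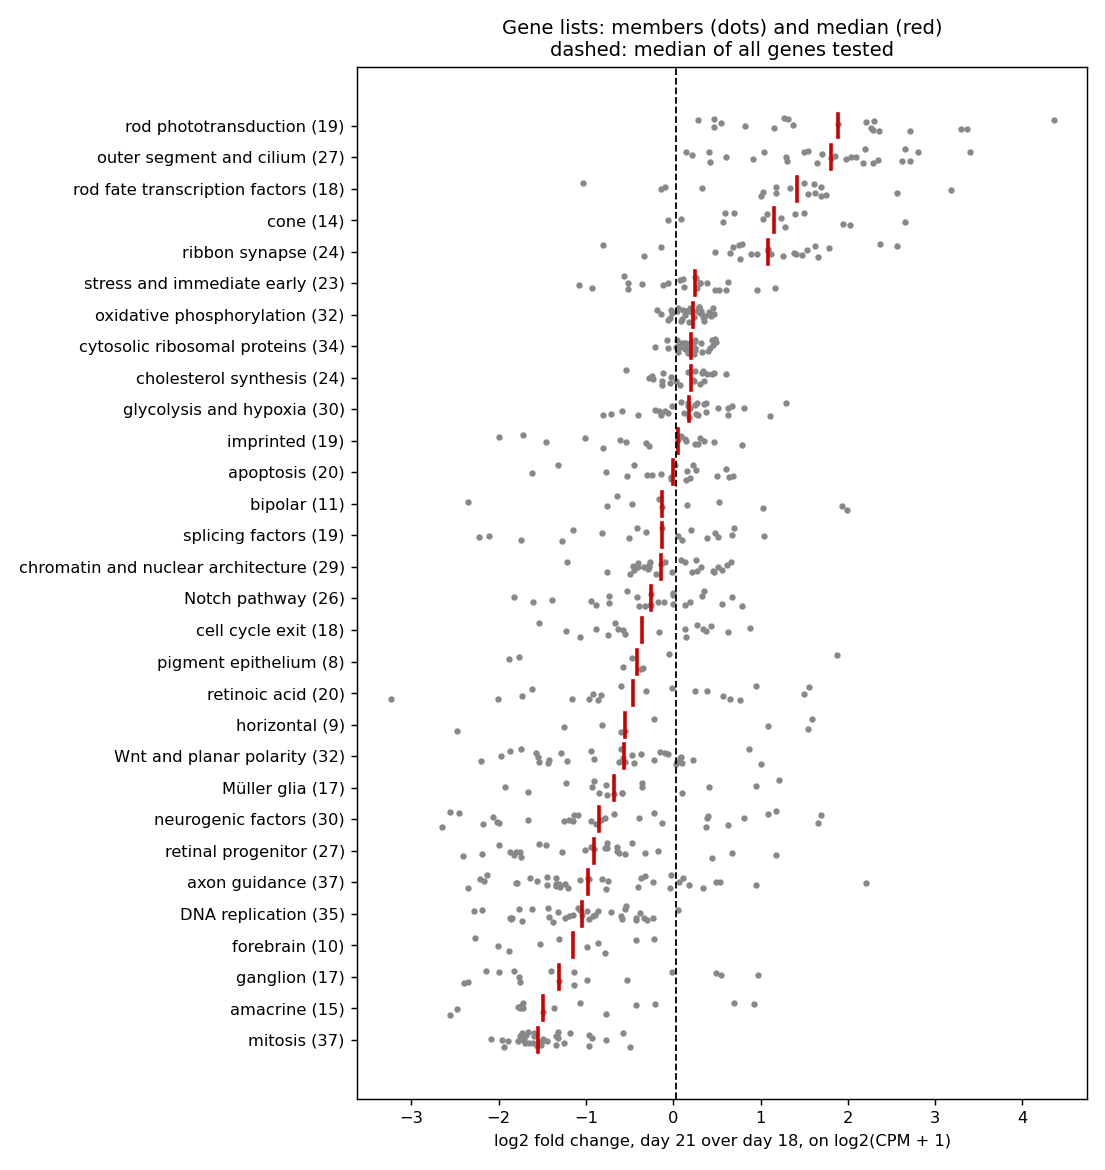
Log2 fold change of day 21 over day 18 for the members (dots) of 30 gene lists, with each list's median in red, the number of members tested in brackets and the median of all genes tested as a dashed line. Rod phototransduction (1.89), outer segment (1.81) and rod factors (1.42) lie at one end and mitosis (-1.55), amacrine (-1.49) and ganglion (-1.31) at the other.

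Markers of other retinal and neural cell types, which the sort could also hold, had mostly negative fold changes. The amacrine list had 13 of 15 members negative, with a median of -1.49, and -1.12 without the ESC and iPSC day 18 replicate 1 libraries. At an unadjusted p under 0.05, 10 were negative (8.56% of all genes), and 1 (Lhx9, -1.49) was without overlap (1.08% of all genes). The list summed to 280 to 524 CPM at day 21 against 421 to 951 CPM at day 18. Barhl2, an amacrine and ganglion factor, had 5.65, 0.924, 0.752 and 1.02 CPM at day 21 against 10.6, 7.07, 8.38, 8.12 and 3.34 CPM at day 18 (ESC replicates first on each day). The ganglion list had 14 of 17 negative, 3 at an unadjusted p under 0.05 (8.56% of all genes), with sums of 372 to 1262 CPM at day 21 against 402 to 1298 CPM at day 18. Its growth cone gene Gap43 had 105 CPM in ESC day 21 replicate 1 and 0.326 to 9.56 CPM in the other 3 day 21 libraries, against 13.9 to 103 CPM at day 18. The part of these cell types in the results for rod and cell cycle genes was not tested.

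Müller glia genes had a median of -0.67 with 13 of 17 negative, and sums of 725 to 1169 CPM at day 21 against 1011 to 1483 CPM at day 18. Vim, an intermediate filament of glia and progenitors, had 169, 71.5, 60.1 and 65.9 CPM at day 21 against 217, 234, 195, 202 and 113 CPM at day 18, a log2 fold change of -1.23, while Apoe, a lipid carrier, had 1.21. Horizontal genes (6 of 9 negative, sums of 688 to 1561 CPM at day 21 and 296 to 1280 CPM at day 18) and bipolar genes (6 of 11 negative, sums of 133 to 269.9 CPM at day 21 and 175.6 to 345 CPM at day 18) were divided. Pcp2, Gng13 and Scgn of the bipolar list had log2 fold changes of 1.99, 1.93 and 1.02, and Isl1 had -2.35. Pcp2 had 42.6 to 52.2 CPM at day 21 against 2.18 to 73.9 CPM at day 18. Of the bipolar markers Grm6 and Vsx1 stayed under 1 CPM in all 9 libraries, and so did Chat and Th of the amacrine list.

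Forebrain factors were negative in 10 of 10 tested, 3 at an unadjusted p under 0.05 (8.56% of all genes), with sums of 25.8 to 113 CPM at day 21 against 40.4 to 249 CPM at day 18. Their median was -1.15, and -0.58 without the ESC and iPSC day 18 replicate 1 libraries. Tbr1, a cortical factor, had 6.77, 0.837, 0.969 and 0.506 CPM at day 21 against 19.2, 14.7, 7.1, 24.1 and 1.87 CPM at day 18. Pigment epithelium genes were 7 of 8 negative, with Rpe65 listed at 0 CPM in all libraries. Their sums of 59.4 to 181 CPM at day 21 and 47.5 to 1590 CPM at day 18 took in Ttr, at 1554 CPM in ESC day 18 replicate 2 and at most 134 CPM elsewhere. Dct, a melanin enzyme, was above Ttr in all 4 day 21 libraries (32.1 to 114 CPM). Of 15 lens genes 4 passed the minimum, with sums of 19.7 to 51.4 CPM at day 21 and 37.9 to 89.5 CPM at day 18. Most of each sum was Prox1, also on the horizontal list, with 16.1 to 47.6 CPM at day 21 and 34.4 to 84.9 CPM at day 18.

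Housekeeping programmes differed little between days. Ribosomal protein genes had a median of 0.20 with 31 of 34 positive and 1 at an unadjusted p under 0.05, and oxidative phosphorylation 0.22 with 26 of 32 positive and 0 at that p. At that p, 8.55% of all genes were positive. The ribosomal median was 0.05 when every library was rescaled to the same sum. Glycolysis and hypoxia genes had 0.19, and within them Aldoc, an aldolase, 1.29 and Eno2, an enolase of neurons, 1.11. Cholesterol synthesis, stress, apoptosis, chromatin, imprinted and splicing lists had medians between -0.14 and 0.26. The medians of the glycolysis, cholesterol, apoptosis, chromatin and imprinted lists changed sign under at least 1 alternative, and that of the imprinted list did so with every library rescaled to the same sum (-0.10, against 0.05). Within the splicing list Mbnl2 had 1.04 and the neuronal factors Nova1 and Nova2 had -2.11 and -2.23, and among imprinted genes Nnat, a small membrane protein of neurons, had -1.73.

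The libraries labelled ESC were also compared alone. They include ESC day 18 replicate 1, whose Ddx3y was at odds with the other ESC libraries. In 1788 genes all 3 ESC day 21 libraries were above all 3 libraries labelled ESC day 18 (12.3%), and in 788 all were below (5.41%). With 3 against 3 libraries limma again called 0 genes (0%, 1977 at an unadjusted p under 0.05, smallest adjusted p 0.335). The log2 fold changes were 2.99 for Nrl, 3.66 for Nr2e3, 1.92 for Neurod1 and -1.82 for Mki67, against 2.56, 3.19, 1.69 and -2.08 with both sources. Without ESC day 18 replicate 1, limma called 0 genes (1217 at an unadjusted p under 0.05), and the fold changes were 1.94 for Nrl, 2.54 for Nr2e3, 1.66 for Neurod1 and -1.14 for Mki67. Without it 2754 genes were above (18.9%) and 1115 below (7.66%), a count added after the data were seen. Fewer libraries separate more readily, and leaving one out can only keep or raise such counts. The counts of different sets of libraries are therefore not comparable. The day effect in iPSC minus that in ESC was also fitted, and 0 genes were called (198 at an unadjusted p under 0.05). It rests on 1 iPSC day 21 library. For Nrl the difference between sources was -1.40 on the log2 scale and for Nr2e3 -1.52, both within the spread between libraries.

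Leaving out 1 library changed the calls in 2 cases. Without iPSC day 18 replicate 2, limma called 1 gene, Bpifb6, a member of the lipid-binding BPI fold family (log2 fold change 3.35, adjusted p = 0.028). It had 6.45, 10.0, 15.8 and 8.83 CPM at day 21 against 0, 0, 0.254, 0 and 12.8 CPM at day 18, in the order ESC replicates 1 to 3, then iPSC. Without ESC day 21 replicate 1 it called 4: the gamma protocadherin Pcdhga8 (-3.03, adjusted p = 0.00257), Tfap2b, a factor of amacrine and horizontal cells (-3.15), and the predicted genes Gm10233 (2.18) and Gm8430 (2.06), each of these 3 at an adjusted p of 0.0444. Tfap2b had 17.9 CPM in ESC day 21 replicate 1 and 0.678 to 3.09 CPM in the other day 21 libraries, against 14.6 to 29.4 CPM at day 18. Pcdhga8 shares exons with the other gamma protocadherins, so its estimated counts are uncertain.

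In these cases the called genes stood apart from the rest of their day in the library left out, so the calls describe the remaining libraries. A fit over all 16 libraries with day as a factor also called 0 genes (2827 at an unadjusted p under 0.05). Omissions from that fit were added after the data were seen. Without iPSC day 18 replicate 2 it called 287 genes, 251 higher at day 21 (1.72%) and 36 lower (0.247%), and without ESC day 21 replicate 1 it called 5. Omitting iPSC day 18 replicate 2 takes out the day 18 library with the most Nrl, Nr2e3 and Crx, so the direction of rod genes in it is in part set by the omission and their calls are not given. Without ESC and iPSC day 18 replicate 1 it called 0 genes (773 at an unadjusted p under 0.05, smallest adjusted p 0.747).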

How the data were processed

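The gene table was deposited by the authors as CPM values. Its values, treated here as a score, run from -1 to 198.2 and equal the square of log2(CPM + 1) minus 1. This was tested against the TPM the authors deposited: 7441 of 7626 genes (97.6%) kept a constant ratio to the back-transformed CPM, at a tolerance of 0.001 on the log2 scale. The submitters' processing notes name Trimmomatic 0.36, kallisto 0.42.5 and edgeR as the authors' tools and GRCm38.p4 as the build. The estimated counts and TPM per transcript deposited by the authors hold 65535 transcripts, 63344 (96.7%) matched to GENCODE, so gene sums, rounded to whole numbers, were complete for 9648 genes, and library totals were rebuilt from the ratio of the tables.

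Here limma 3.58.1 (R 4.3.3) with trend was fitted to log2(CPM + 1), which understates the change of low genes, over the 9 libraries with source and day as factors, keeping genes that reached 1 CPM in 2 or more libraries. P-values were adjusted by the Benjamini-Hochberg method over all 14554 genes, with a threshold of 0.05. A further fit used ESC libraries alone, and another the interaction of day and source. Alternatives were edgeR 4.0.16 and DESeq2 1.42.0 on gene sums with at least 10 counts in 2 libraries, other pseudocounts, filters and scalings, and each library left out. The fits were also run on simulated counts, with the same dispersion for every gene and no source effect or shared difference between libraries beyond depth. Those counts lack the spread between these libraries, so the run gives no error rate for these data.

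Named genes are landmarks, the 10 largest positive and negative fold changes with non-overlapping days and a mean of at least 5 CPM, up to 4 members of each described list with the smallest p, and genes called when a library was left out. Other genes were named after their values were seen, and not every gene given by the rule is reported here. The members and the 33 lists were chosen with earlier results of these data known.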

Additional observations from a re-analysis of the deposited data

Results flagged for a closer look

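In groups of 4 or 5 libraries, 17 of 218 groups of values (2 for each of 109 genes named) had a library far from the others of its day. For independent, normally distributed values chance gives about 1 in 20. The genes were chosen from these same data and share their libraries, and the groups mix ESC and iPSC. That rate is therefore no yardstick for the 17.

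ESC day 21 replicate 3 stood above the other day 21 libraries for Nrl (1915 CPM, next 428), Nr2e3 (1675, next 370), Prph2 (1210, next 273) and Smim1 (33.7, next 18.97). It stood below them for Cd1d1 (0.967 CPM, next 6.94) and Slc30a10 (2.15, next 9.85).

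ESC day 21 replicate 1 was lowest of its day for Otx2 (1019 CPM, next 1562). It was far above the other day 21 libraries for Vim (169 CPM, next 71.5), Rlbp1 (5.48, next 3.1), Barhl2 (5.65, next 1.02), Celf4 (62.2, next 31.5) and Tbr1 (6.77, next 0.969).

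iPSC day 18 replicate 2 was far above the other day 18 libraries for Bpifb6 (12.8 CPM, next 0.254), Btg2 (880.4, next 444) and Rdh8 (4.79, next 0.162), and far below them for Vim (113 CPM, next 195). ESC day 18 replicate 2 was lowest of day 18 for Onecut1 (7.58 CPM, next 25.0).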

How the results depend on the processing

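The count of 0 called genes between days held without the source term, with a pseudocount of 0.1, with no filter or a stricter one, under both other scalings, over all 16 libraries, and in edgeR. It was 14 with DESeq2, 4749 with limma's array weights and 1427 with the replicate number as a block, which also gave 45 for ESC alone. Same-numbered ESC libraries of the days correlated at 0.322, 0.0617 and 0.254 in their deviations from the day means, and not every library correlated best with its own number, so the numbers were not taken as pairs. Single omissions gave 0 to 4 called genes over 9 libraries, 0 to 287 over 16 (5 without ESC day 21 replicate 1) and 0 to 3 in ESC alone, and 320 to 2079 genes with non-overlapping days. Without the pair at odds on Ddx3y there were 1835 such genes, and an omission can only keep or raise this number. Of 3394 gene values under alternatives, 3161 kept their direction and their side of the threshold, 232 passed it, and Ttr changed sign with array weights (0.13). Of 528 list medians 28 changed sign. The cause of these differences was not tested. Depth limits genes at low level, where 1 count was worth up to 0.152 CPM.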

Other observations

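Pluripotency genes were looked at as a sign of undifferentiated cells. Of 14 listed, 8 were tested, with 3 positive and 5 negative fold changes, and the list summed to 20.3 to 46.4 CPM at day 21 against 38.03 to 105 CPM at day 18. At an unadjusted p under 0.05, 3 were positive (8.55% of all genes) and 1 was negative (8.56%), and 2 of 8 were higher without overlap (0.996% of all genes). The most negative was Sox2, also a progenitor gene, at -1.76, followed by Lin28b at -1.02 and Klf4 at -0.61. Of the sums, Sox2 held 4.97 to 27.3 CPM at day 21 and 23.2 to 79.0 CPM at day 18. The 3 positive ones follow. Lin28a, an RNA-binding protein of stem cells and early progenitors, had 7.86, 9.77 and 7.1 CPM in ESC day 21 libraries and 8.67 CPM in the iPSC day 21 library, against 1.66, 5.11 and 1.84 CPM in ESC day 18 libraries and 2.04 and 6.39 CPM in iPSC day 18 libraries. The days did not overlap, and the log2 fold change was 1.25. Sall4, a zinc finger factor of stem cells, was also higher in 4 of 4 day 21 libraries, with 1.17 to 2.39 CPM at day 21 and 0.237 to 0.478 CPM at day 18. These levels are low, where 1 count was worth up to 0.152 CPM. Pou5f1, which encodes Oct3/4, had 0.902 to 3.94 CPM at day 21 and 0 to 1.67 CPM at day 18, with overlap. Nanog stayed below the minimum and Utf1 and Dppa3 were listed at 0 CPM in all 9 libraries.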
